A study of Mus musculus with 9 samples.

Results

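Type I interferon response genes were followed in the ulcer skin of rats, as a set of 39 genes named by symbol that interferon alpha and beta are known to induce or to need for signalling. Of the 39 genes, 38 were found by name in the gene table of 30560 rows, and Ifit1 was not analysed here. All 38 reached the level asked for, 0.5 FPKM in at least 3 of the 9 libraries, as did 15600 of the 28370 features left after rows of one name were summed. FPKM is the number of fragments per kilobase of transcript and per fixed number of mapped fragments, a level that can be compared between genes. The members nearest to that threshold were Zbp1, with a lowest value of 0.333 FPKM, and Oas3, with a lowest value of 0.341 FPKM, and each was at or above 0.5 FPKM in 7 libraries.

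The study compared 3 groups of 3 libraries. In the PRP group, diabetic ulcers had 0.5 ml of platelet-rich plasma, a concentrate of a blood sample's own platelets, injected into the wound on days 1, 7, 14 and 21. The diabetic group had diabetic ulcers and the non-diabetic group had ulcers without diabetes, and both were given saline in the same volume. All tissue was labelled day 21, and all groups shared the wound, its dressing and repeated injection. The labels do not say how diabetes was induced, which strain or age of animal was used, or from whom the plasma came. They name the mouse as the organism and a mouse genome build, whereas the design text speaks of rats and the gene identifiers in the table are rat Ensembl identifiers, so the genes are treated as rat genes; which rat build their coordinates follow is not stated.

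Type I interferons bind the receptor pair Ifnar1 and Ifnar2, whose kinases Jak1 and Tyk2 phosphorylate Stat2. With Irf9, Stat2 enters a complex that binds an element of paired GAAA blocks in the promoters of interferon-stimulated genes. The products sense viral RNA, degrade it, block translation or modify other proteins, and in skin wounds plasmacytoid dendritic cells and macrophages are known sources of interferon.

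No rat promoter table was given, so the element is shown in mouse promoters, from RefSeq on build GRCm38.p6, for genes whose rat values are described below. The motif was a pair of GAAA blocks with any 2 bases between them, or its reverse complement, a pair of TTTC blocks with any 2 bases between them. The search ran from 250 bases before to 50 bases after each start, on both strands. The motif was in 11 of the 28 listed genes that matched the table, or 39.3%, and in 3.99% of all 27025 genes in it. Ifit1, not analysed here, is among the 11, and without it the share was 10 of 27, or 37.0%. Of the called genes described below, Stat2 held the motif and Irf1 and Oasl2 did not. Parp9 and Parp14 had no promoter that matched. Capitals mark the motif, with overlapping copies joined, in 60 bases of each promoter, written 5′ to 3′ along the gene's strand. Stat2 and Gbp2 carry 1 copy each, 222 and 59 bases before the start; Isg15 carries 3 overlapping copies from 78 bases before it, and Ifit3 has 2 separate ones.
Stat2 (chr10:128270251-128270310, plus strand): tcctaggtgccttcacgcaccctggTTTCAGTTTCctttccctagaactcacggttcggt
Gbp2 (chr3:142620579-142620638, plus strand): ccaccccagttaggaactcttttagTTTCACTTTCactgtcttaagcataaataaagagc
Oas1a (chr5:120907508-120907567, minus strand): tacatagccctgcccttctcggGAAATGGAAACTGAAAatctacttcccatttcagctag
Rsad2 (chr12:26456538-26456597, minus strand): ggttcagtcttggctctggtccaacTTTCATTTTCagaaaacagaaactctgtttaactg
Isg15 (chr4:156200856-156200915, minus strand): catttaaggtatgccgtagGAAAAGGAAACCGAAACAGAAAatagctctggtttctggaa
Ifit3 (chr19:34583365-34583424, plus strand): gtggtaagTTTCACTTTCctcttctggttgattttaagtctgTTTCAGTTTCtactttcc
Irf1 carries a different element in its window, the palindrome of TTC and GAA with any 3 bases between them that STAT dimers are known to bind, 90 bases before the start. That motif was searched after the values had been seen, and 25% of the 28 matched genes and 9.55% of all genes in the table held it.
Irf1 (chr11:53769898-53769957, plus strand): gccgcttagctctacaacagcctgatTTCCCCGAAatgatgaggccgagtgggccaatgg

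FPKM summed to between 564078 and 728332 per library, with 19591 to 21814 features above 0, and the relative depth read from 81 long non-coding RNA genes with whole counts lay between 0.835 and 1.11. Collagen and keratinocyte genes were present in every library, but the tissue was uneven. The summed level of 11 keratinocyte markers was 5420 to 11180 FPKM in PRP ulcers, 4197 to 6589 FPKM in diabetic ulcers and 217 to 3423 FPKM in non-diabetic ulcers, lowest in non-diabetic library 3. That of 15 hair follicle markers was 767 to 3073 FPKM in PRP ulcers, 527 to 7828 FPKM in diabetic ulcers and 9.46 to 2717 FPKM in non-diabetic ulcers. The part of this unevenness in the interferon gene values was not tested. The labels call the libraries biological replicates without naming animals, so whether each came from a separate animal is not known. The p-values set group differences against the spread between these samples, estimated over all 9 libraries. In whole tissue, fewer cells of a type and less RNA per cell cannot be told apart.

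Between diabetic and non-diabetic ulcers, 5 of the 38 interferon response genes passed the test: the transcription factors Stat2 and Irf1, the oligoadenylate synthetase-like gene Oasl2, and Parp9 and Parp14, which encode enzymes or relatives of the ADP-ribosyltransferase family. All 5 were lower in diabetic ulcers, with differences of -0.53 for Stat2 to -1.16 for Irf1 on the log2(FPKM + 1) scale. The 5 calls make 13.2% of the members, where 8.95% of all 15600 features were called, 7.16% as lower and 1.79% as higher. The test was limma's moderated test on log2(FPKM + 1), with p-values adjusted by Benjamini-Hochberg over all features and called under 0.05. Differences are on that scale throughout, which understates the change of genes at low levels.

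Over all 38 members, called or not, 35 had a negative difference and 3 a positive one. The median was -0.60 and the range -1.71 to 0.15, whereas the median over all features was 0.04 and 46.5% of them were negative. The 3 diabetic values were all below the 3 non-diabetic values in 20 members, or 52.6%, and in 19.6% of all features; 14.4% of features were apart the other way, which no member was, and 34.1% in either direction. At an unadjusted p under 0.05, 18 members were lower and none higher, where 19.0% of all features were lower, 15.7% higher and 34.7% either. The calls moved with single libraries. Without PRP library 1 or 2, diabetic library 2 or 3, or non-diabetic library 1 or 3, 0 members were called. In each of those fits, at most 0.0129% of all features were called. The count was 1 member without PRP library 3, where 2.65% of all features were called. It was 6 without diabetic library 1, where 16.8% were, and 11 without non-diabetic library 2, where 22.4% were. Leaving out any library left at least 30 of the 38 differences negative.

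Against diabetic ulcers, PRP ulcers had no called member, and no feature of the 15600 was called (0%). At an unadjusted p under 0.05, limma gave 1 member, Lgals3bp, which was higher, and 1021 features, or 6.54%, of which 3.98% of all were higher and 2.56% lower. The members' differences were positive in 23 and negative in 15, with a median of 0.10, against -0.06 over all features. Once FPKM was scaled to one total in every library, which moved the median of all features to -0.22, 22 members were negative. Against non-diabetic ulcers, PRP ulcers again had no called member, while 0.00641% of features were called. The differences were negative in 35 members, with a median of -0.51, against -0.04 over all features. The 3 PRP values were below the 3 non-diabetic values in 22 members, or 57.9%, and in 20.4% of all features; 8.92% of features were apart the other way, which no member was, and 29.4% in either direction. At an unadjusted p under 0.05, 13 members were lower and none higher, where 12.8% of all features were lower, 7.56% higher and 20.4% either. Each pair of these comparisons shares a group, so they are not separate evidence.

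**Figure D1:**
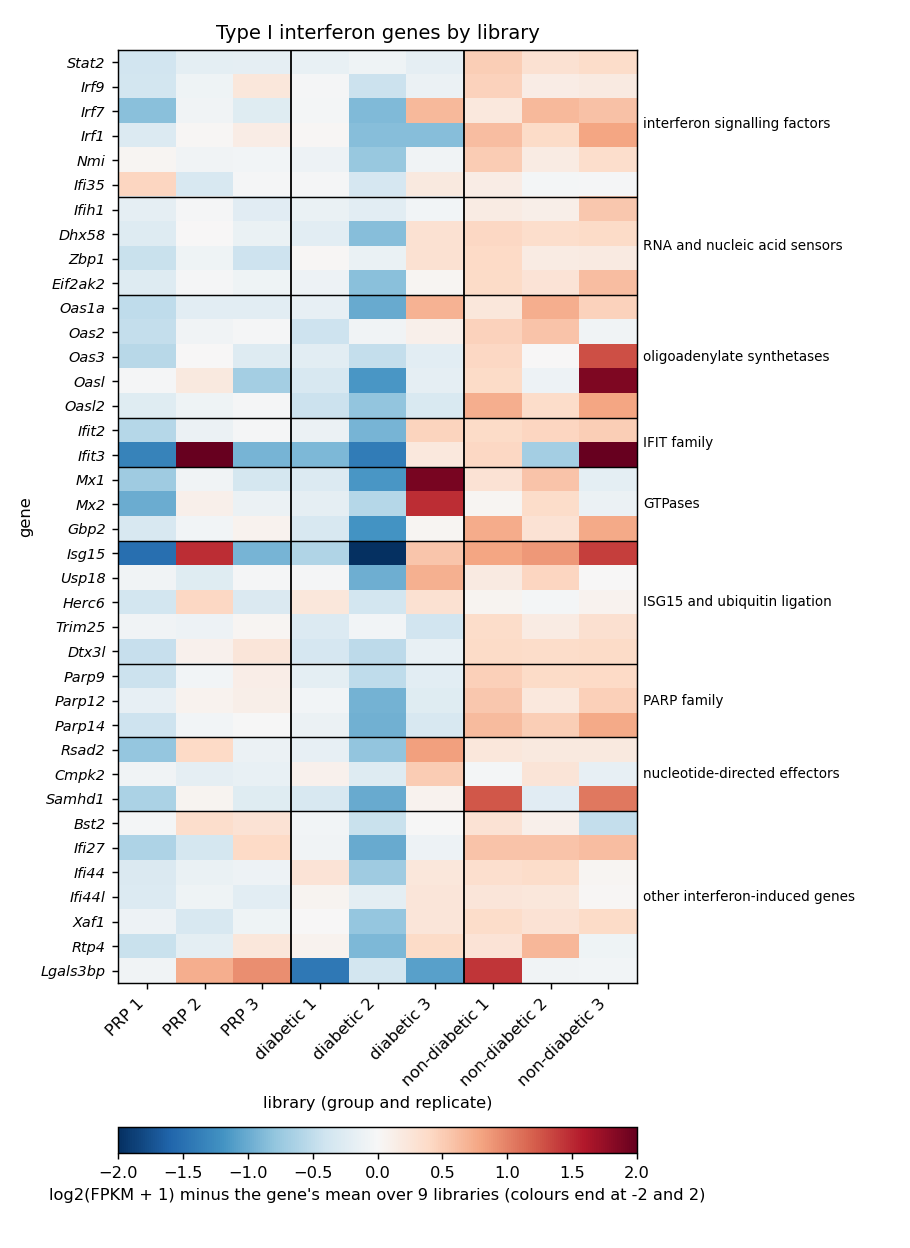
Level of each of the 38 measured interferon response genes in the 9 libraries, as log2(FPKM + 1) relative to the gene's mean over all libraries, with libraries across the page and genes grouped by role down it; colours end at -2 and 2. Diabetic library 2 held the lowest value of 26 genes, and non-diabetic libraries 1, 2 and 3 held the highest value of 12, 5 and 12 genes.

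**Figure D2:**
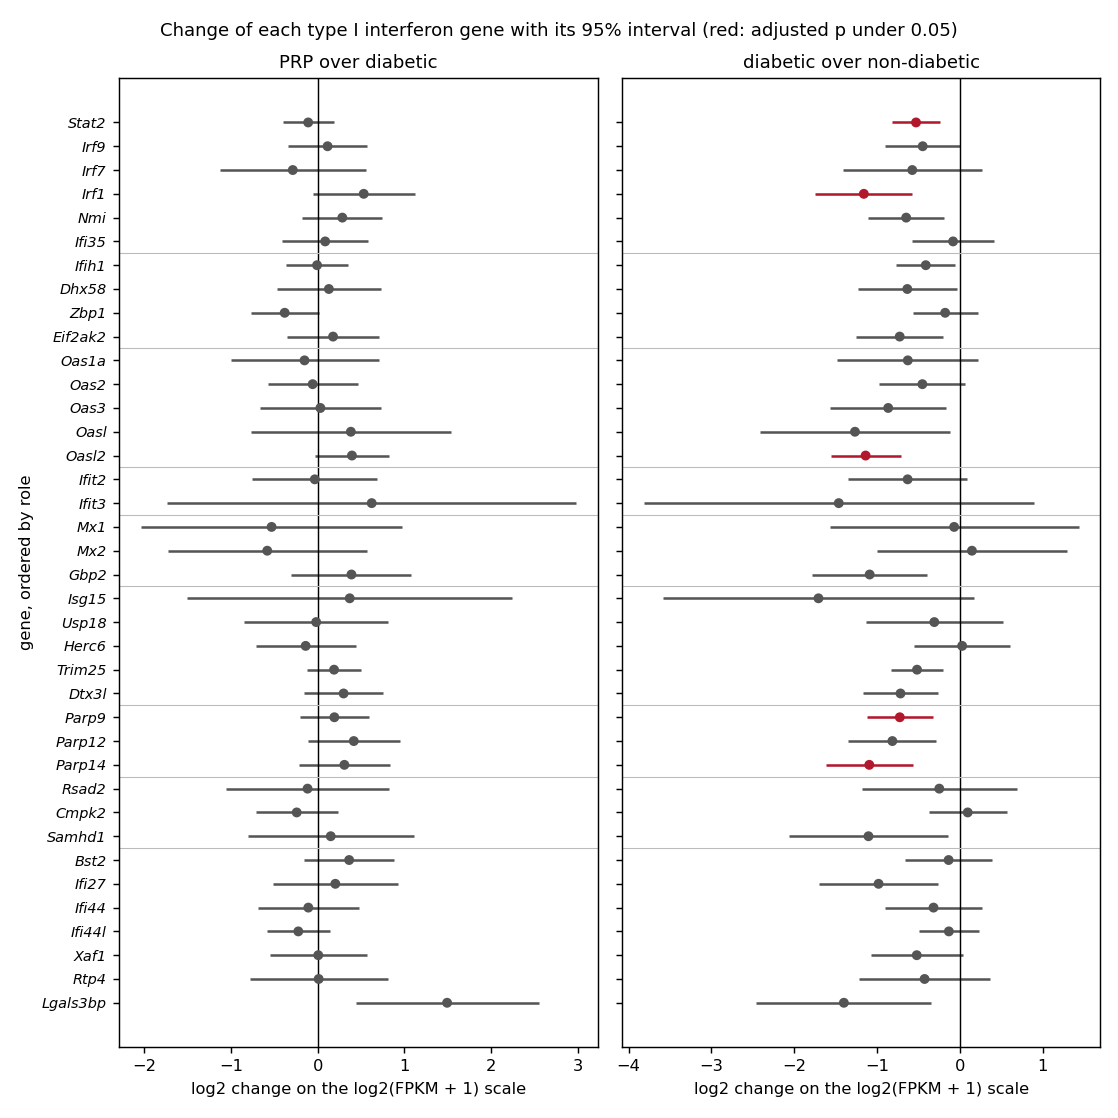
Difference of each of the 38 genes on the log2(FPKM + 1) scale with points for the estimate and lines for its 95% confidence interval, PRP minus diabetic ulcers on the left and diabetic minus non-diabetic ulcers on the right, and the 5 called genes in red. The points lay between -0.58 and 1.49 on the left and between -1.71 and 0.15 on the right.

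Among the signalling factors was Stat2, a subunit of the interferon-activated complex. Stat2 had 7.23, 8.35 and 8.51 FPKM in PRP libraries 1 to 3, 8.62, 9.09 and 8.47 FPKM in diabetic libraries 1 to 3 and 14.1, 12.2 and 12.9 FPKM in non-diabetic libraries 1 to 3. Every non-diabetic library was above all 6 others, and the PRP and diabetic values overlapped. The mean was 8.73 ± 0.323 FPKM in diabetic and 13.1 ± 1.01 FPKM in non-diabetic ulcers (SD, n = 3 each), a log2 difference of -0.53 (SE 0.13, limma adjusted p = 0.0437). PRP against diabetic ulcers, the interval of the difference was -0.40 to 0.18.

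Irf1, a factor induced by interferons that binds the same class of promoter elements, had 6.27, 7.94 and 8.77 FPKM in PRP, 7.91, 3.88 and 3.85 FPKM in diabetic and 12.6, 10.4 and 14.2 FPKM in non-diabetic ulcers. Diabetic library 1 was at about the level of the PRP libraries, and the other two were below all of them. Irf1 was lower in diabetic than in non-diabetic ulcers by a log2 difference of -1.16 (SE 0.26, limma adjusted p = 0.0383), and PRP minus diabetic was 0.53 with an interval of -0.06 to 1.12. The master regulator of interferon genes, Irf7, was spread far more widely, with 9.14, 16.2 and 14.2 FPKM in PRP, 16.5, 8.75 and 27.2 FPKM in diabetic and 19.9, 27.3 and 26.0 FPKM in non-diabetic ulcers. Diabetic library 3 was level with the highest non-diabetic library and diabetic library 2 was the lowest of all 9, so the groups overlapped (log2 difference -0.58, limma adjusted p = 0.284).

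Ifi35, which forms a complex with Nmi, had 14.1, 8.03 and 10.1 FPKM in PRP, 10.01, 7.88 and 11.9 FPKM in diabetic and 11.4, 9.92 and 10.04 FPKM in non-diabetic ulcers. Its groups overlapped in every comparison, with a difference of -0.08 and an interval of -0.58 to 0.41 between diabetic and non-diabetic ulcers. Of the 6 factors, all 6 differences were negative between diabetic and non-diabetic ulcers and 2 were called. Of all features, 46.5% were negative and 8.95% were called, 7.16% as lower. Reads of Ifi35 are uncertain, because its span overlaps Vat1, and so are those of Irf9, which overlaps Rnf31.

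**Figure D3:**
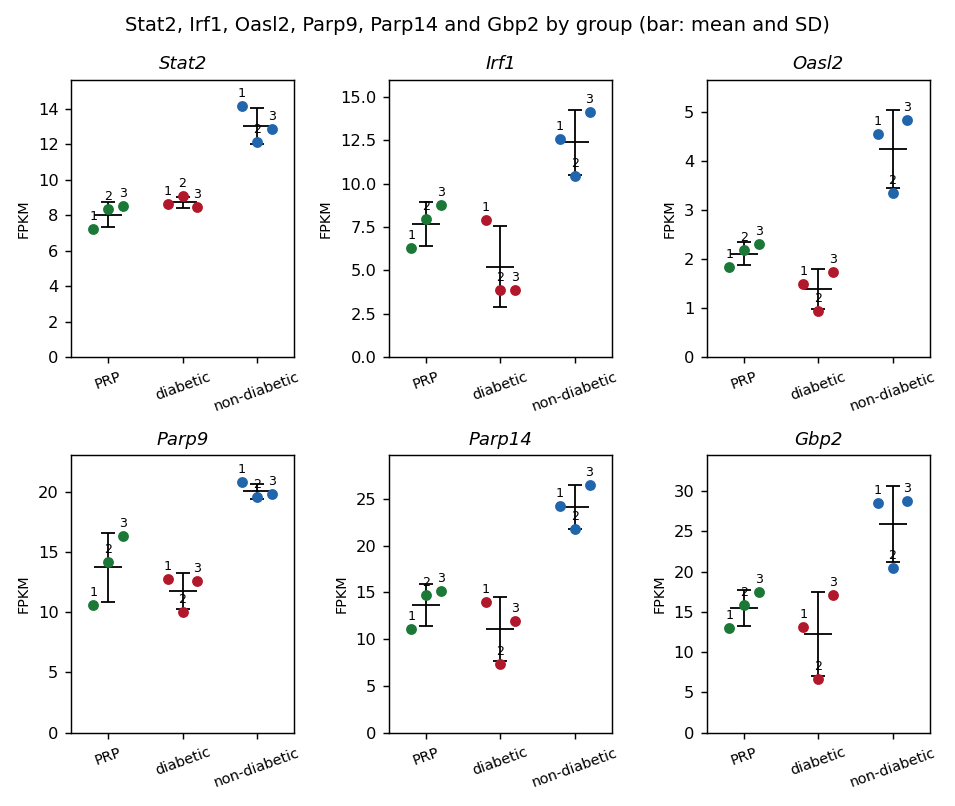
FPKM of Stat2, Irf1, Oasl2, Parp9, Parp14 and Gbp2 in each library, numbered by replicate, with the mean and SD of each group; axes start at 0. Non-diabetic values lay above all diabetic values for each gene; Gbp2 alone of the 6 was not called (adjusted p = 0.0559).

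Among the sensors of foreign RNA and DNA, Eif2ak2, the kinase PKR that halts translation on double-stranded RNA, had 11.3, 13.4 and 12.8 FPKM in PRP, 12.7, 7.19 and 14.0 FPKM in diabetic and 18.2, 16.6 and 21.5 FPKM in non-diabetic ulcers. Ifih1, the cytoplasmic RNA helicase MDA5, had 4.59, 5.24 and 4.44 FPKM in PRP, 4.76, 4.47 and 5.12 FPKM in diabetic and 6.12, 5.91 and 8.21 FPKM in non-diabetic ulcers. For both genes every non-diabetic library was above every diabetic and PRP library, yet neither passed the test (log2 difference -0.73 and limma adjusted p = 0.0726 for Eif2ak2). For Ifih1 the log2 difference was -0.41 (limma adjusted p = 0.106). None of the 4 sensors was called, and 3 were lower at an unadjusted p under 0.05, as were 19.0% of all features, with 34.7% in either direction.

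The oligoadenylate synthetases make the second messenger that activates RNase L. Oasl2, a relative of these enzymes, had 1.84, 2.19 and 2.31 FPKM in PRP, 1.49, 0.940 and 1.73 FPKM in diabetic and 4.55, 3.35 and 4.84 FPKM in non-diabetic ulcers. The 3 groups did not overlap: non-diabetic libraries were highest, PRP libraries came between and diabetic libraries were lowest. The mean was 1.39 ± 0.404 FPKM in diabetic and 4.24 ± 0.791 FPKM in non-diabetic ulcers (SD, n = 3 each), a log2 difference of -1.14 (SE 0.19, limma adjusted p = 0.0308), the lowest adjusted p among the members. PRP minus diabetic was 0.39, with an interval of -0.03 to 0.82 (limma adjusted p = 0.713), and PRP minus non-diabetic was -0.74 (limma adjusted p = 0.154).

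Oas1a, a catalytic member of the family, had 3.85, 4.97 and 4.93 FPKM in PRP, 5.15, 2.43 and 10.2 FPKM in diabetic and 7.08, 10.4 and 8.45 FPKM in non-diabetic ulcers. Diabetic library 3 fell within the non-diabetic range, and the difference of -0.63 did not pass (limma adjusted p = 0.252). Oasl, the neighbour of Oasl2 at a distance of 13.8 kb, had 2.09, 2.58 and 0.961 FPKM in PRP, 1.52, 0.403 and 1.77 FPKM in diabetic and 3.09, 1.91 and 10.5 FPKM in non-diabetic ulcers. Non-diabetic library 3 stood far above the rest, and its difference of -1.27 had an interval of -2.42 to -0.12 (limma adjusted p = 0.117). Between diabetic and non-diabetic ulcers, 46.5% of all features were negative and 8.95% were called, 7.16% as lower. All 5 genes of this family were negative there, and 1 was called. Reads may be shared among these close copies, so their separate levels are uncertain.

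Ifit2 and Ifit3 encode proteins that bind viral RNA and lie 5.53 kb apart. Ifit2 had 7.71, 10.9 and 11.7 FPKM in PRP, 10.9, 5.76 and 16.5 FPKM in diabetic and 15.7, 16.3 and 17.2 FPKM in non-diabetic ulcers, within a narrow band in the non-diabetic group. Ifit3 had 3.70, 48.4 and 5.24 FPKM in PRP, 5.41, 3.50 and 12.8 FPKM in diabetic and 14.9, 6.46 and 69.3 FPKM in non-diabetic ulcers. PRP library 2 and non-diabetic library 3 were far above the other 7 for Ifit3, and for Ifit2 they were not set apart. The ratio of Ifit3 to Ifit2 was 0.479, 4.46 and 0.447 in PRP, 0.496, 0.607 and 0.773 in diabetic and 0.946, 0.397 and 4.03 in non-diabetic ulcers. Neither gene was called in any comparison.

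Isg15, the ubiquitin-like protein attached to other proteins after interferon, had its highest value in PRP library 2. It is among the genes picked here after their values were seen, along with Mx2, Usp18, Cmpk2, Lgals3bp, Ifit1bl and Slfn4. Isg15 had 0.844, 13.6 and 1.75 FPKM in PRP, 2.44, 0.289 and 6.73 FPKM in diabetic and 8.10, 8.61 and 12.7 FPKM in non-diabetic ulcers. The diabetic values were all below the non-diabetic ones, and the PRP values covered nearly the whole range. Its difference of -1.71 between diabetic and non-diabetic ulcers was the most negative of the 38, with an interval of -3.58 to 0.17 (limma adjusted p = 0.172). Reads of Isg15 are uncertain, because its span overlaps Agrn.

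Ifit1bl, another gene of the Ifit locus, had 0.914, 25.5 and 1.105 FPKM in PRP, 1.23, 0.635 and 0.951 FPKM in diabetic and 11.8, 1.80 and 55.5 FPKM in non-diabetic ulcers. Slfn4, a Schlafen gene known in mouse from myeloid cells, had 5.86, 28.5 and 8.28 FPKM in PRP, 8.10, 7.47 and 11.1 FPKM in diabetic and 31.3, 12.1 and 58.3 FPKM in non-diabetic ulcers. Both were highest in non-diabetic library 3, with PRP library 2 far above the other PRP libraries. Beside these values, the summed level of 11 neutrophil markers was 268, 6066 and 949 FPKM in PRP, 92.9, 56.3 and 346 FPKM in diabetic and 1556, 66.4 and 807 FPKM in non-diabetic ulcers. S100a9 and S100a8 gave most of that sum in PRP library 2, with 3566 and 2448 FPKM. The granule genes Ngp, Elane and Mpo did not reach the filter. The mean log2(FPKM + 1) of the 11 markers was 3.99 in PRP library 2, below 4.26 and 5.13 in non-diabetic libraries 1 and 3. The part of neutrophils in the Ifit3, Isg15, Ifit1bl and Slfn4 values was not tested.

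**Figure D4:**
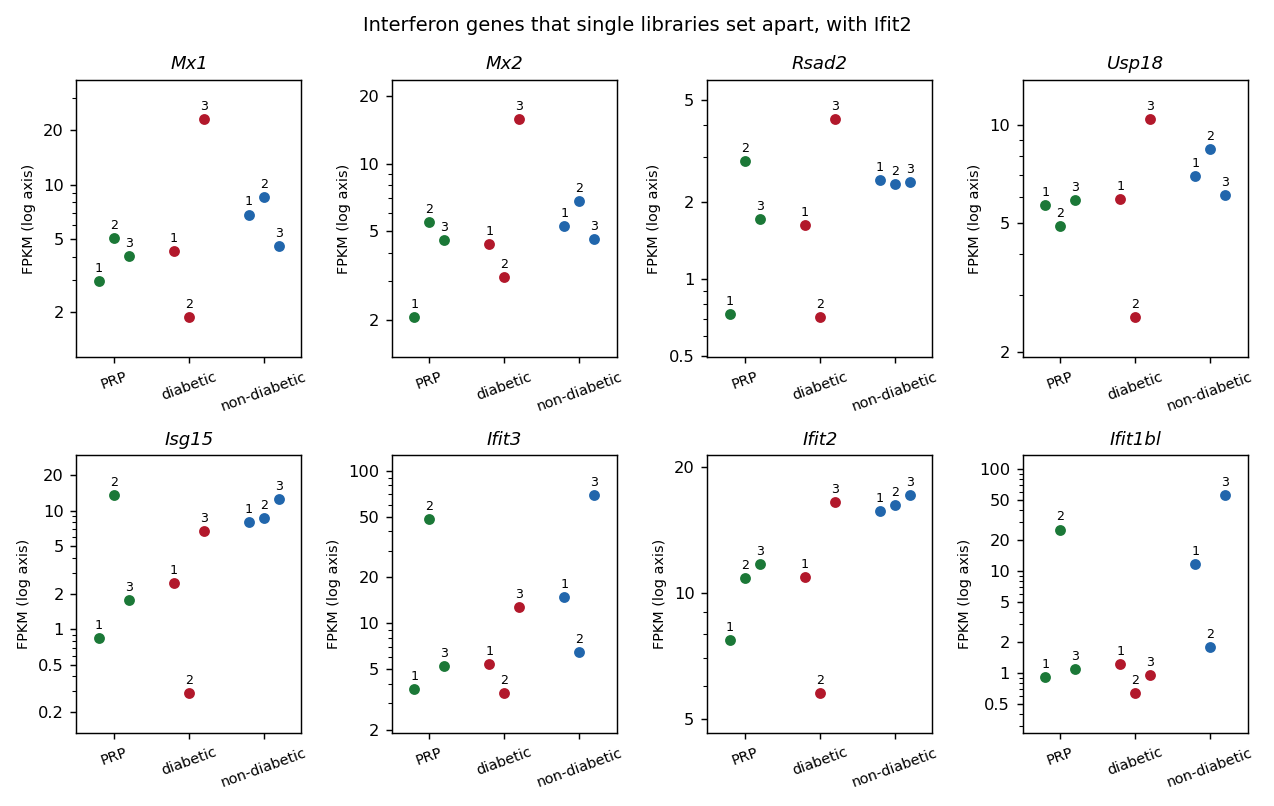
FPKM on a log axis of 8 interferon genes in each library, numbered by replicate, by group. Diabetic library 3 was highest for Mx1, Mx2, Rsad2 and Usp18, whereas PRP library 2 and non-diabetic library 3 held the 2 highest values of Isg15, Ifit3 and Ifit1bl.

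The GTPases include the Mx proteins, which block viral ribonucleoproteins, and the guanylate-binding protein Gbp2. Mx1 had 2.94, 5.08 and 4.03 FPKM in PRP, 4.32, 1.86 and 22.9 FPKM in diabetic and 6.86, 8.51 and 4.62 FPKM in non-diabetic ulcers. Mx2, 82.6 kb from it, had 2.06, 5.47 and 4.57 FPKM in PRP, 4.36, 3.11 and 15.8 FPKM in diabetic and 5.26, 6.78 and 4.60 FPKM in non-diabetic ulcers. Diabetic library 3 stood above all others for both. The differences were -0.07 for Mx1 and 0.15 for Mx2 between diabetic and non-diabetic ulcers. Over the alternatives tried they ranged from -0.94 to 0.59 for Mx1 and from -0.47 to 0.55 for Mx2, so neither gene had a settled direction.

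Gbp2 did not share this pattern. It had 13.04, 15.9 and 17.5 FPKM in PRP, 13.1, 6.67 and 17.0 FPKM in diabetic and 28.5, 20.4 and 28.8 FPKM in non-diabetic ulcers, with all non-diabetic values above all others. The difference of -1.09 between diabetic and non-diabetic ulcers missed the threshold (SE 0.30, limma adjusted p = 0.0559).

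Diabetic library 3 was also the highest of all 9 for Usp18, Rsad2 and Cmpk2, so that it led for 5 members, and it was the highest diabetic library for 27 of the 38. Usp18, the protease that removes Isg15 from proteins and damps receptor signalling, had 5.68, 4.89 and 5.86 FPKM in PRP, 5.91, 2.55 and 10.4 FPKM in diabetic and 6.96, 8.46 and 6.07 FPKM in non-diabetic ulcers. Rsad2, the antiviral enzyme viperin, had 0.728, 2.89 and 1.71 FPKM in PRP, 1.62, 0.708 and 4.20 FPKM in diabetic and 2.44, 2.35 and 2.38 FPKM in non-diabetic ulcers. The 3 non-diabetic libraries were nearly equal for Rsad2, while the diabetic ones spanned the whole range. In Irf1 and Trim25 the same diabetic library 3 held the lowest value of all 9.

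Diabetic library 2 was the lowest of all 9 libraries for 26 members and the lowest diabetic library for 33. The mean of the 38 log2(FPKM + 1) values was 2.48, 2.95 and 2.79 in PRP libraries, 2.69, 2.17 and 3.03 in diabetic libraries and 3.30, 3.15 and 3.33 in non-diabetic libraries. Without diabetic library 2, 30 of 38 members were negative between diabetic and non-diabetic ulcers, and 25 of 38 were negative between PRP and diabetic ulcers. Without diabetic library 3, 38 of 38 were negative between diabetic and non-diabetic ulcers, and 5 were negative between PRP and diabetic ulcers. The direction of most members between PRP and diabetic ulcers depended on which diabetic libraries were included.

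In ISG15 and ubiquitin ligation, Trim25, the ligase that activates the RNA sensor RIG-I, had 10.4, 10.2 and 11.3 FPKM in PRP, 8.97, 10.5 and 8.23 FPKM in diabetic and 14.4, 12.4 and 14.0 FPKM in non-diabetic ulcers. Dtx3l, the ligase that pairs with Parp9, had 5.48, 8.45 and 9.51 FPKM in PRP, 6.03, 5.17 and 6.98 FPKM in diabetic and 10.6, 10.4 and 10.6 FPKM in non-diabetic ulcers. Both were highest in all 3 non-diabetic libraries and fell just short of the threshold, with a log2 difference of -0.52 and limma adjusted p = 0.0517 for Trim25. For Dtx3l the difference was -0.72 (limma adjusted p = 0.0549). None of the 5 genes of this role was called.

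Parp9, an inactive or weakly active relative of the ADP-ribosyltransferases, had 10.6, 14.2 and 16.3 FPKM in PRP, 12.7, 10.03 and 12.5 FPKM in diabetic and 20.8, 19.5 and 19.8 FPKM in non-diabetic ulcers. The non-diabetic libraries lay close together and above all 6 others. The mean was 11.8 ± 1.51 FPKM in diabetic and 20.01 ± 0.658 FPKM in non-diabetic ulcers (SD, n = 3 each), a log2 difference of -0.73 (SE 0.17, limma adjusted p = 0.0430). PRP minus diabetic was 0.19, with an interval of -0.21 to 0.59.

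Parp14, a mono-ADP-ribosyltransferase that acts in macrophage and interferon signalling, had 11.1, 14.7 and 15.1 FPKM in PRP, 14.0, 7.34 and 12.0 FPKM in diabetic and 24.3, 21.8 and 26.4 FPKM in non-diabetic ulcers. Again no non-diabetic library overlapped the others. The mean was 11.1 ± 3.43 FPKM in diabetic and 24.2 ± 2.34 FPKM in non-diabetic ulcers (SD, n = 3 each), a log2 difference of -1.09 (SE 0.23, limma adjusted p = 0.0361). PRP minus diabetic was 0.31, with an interval of -0.22 to 0.83, and PRP minus non-diabetic was -0.79 (limma adjusted p = 0.156). The third gene of this family, Parp12, was negative as well and was not called.

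Parp9, Dtx3l and Parp14 are neighbours in the files' rat coordinates, all on chromosome 11. Parp9 spans 64780981 to 64815455 on the minus strand, and Dtx3l spans 64814926 to 64824538 on the plus strand. They overlap by 530 bases, and Dtx3l lies 78.2 kb from Parp14. The library kit keeps strand, but the sources do not say whether strand was used in counting, so reads in the shared 530 bases cannot be assigned with certainty to Parp9 or Dtx3l.

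Of the genes that act on nucleotides, Samhd1, which depletes the nucleotide pool that viruses need, had 4.53, 7.89 and 6.24 FPKM in PRP, 5.84, 3.25 and 7.96 FPKM in diabetic and 19.1, 6.26 and 16.7 FPKM in non-diabetic ulcers. Non-diabetic libraries 1 and 3 were far above the rest, and non-diabetic library 2 lay within the diabetic range. The difference of -1.10 was not called (interval -2.06 to -0.15, limma adjusted p = 0.106). Rsad2 and Cmpk2, which are neighbours 14.1 kb apart, had differences of -0.25 and 0.09.

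Ifi27, a small membrane protein of mitochondria and the nuclear envelope, was the member with the highest level. It had 72.8, 87.7 and 147 FPKM in PRP, 107, 55.3 and 104 FPKM in diabetic and 167, 167 and 173 FPKM in non-diabetic ulcers. The non-diabetic libraries were nearly equal and above all others, and the difference of -0.98 missed the threshold (limma adjusted p = 0.0753). Its annotated span overlaps Serpina10, Ppp4r4 and Ifi27l2b, so its reads are uncertain. Bst2, the tetherin that holds budding virions at the cell surface, had 23.8, 31.4 and 29.9 FPKM in PRP, 23.5, 17.7 and 24.4 FPKM in diabetic and 30.0, 26.4 and 17.3 FPKM in non-diabetic ulcers. Its groups overlapped, and the difference between diabetic and non-diabetic ulcers was -0.14 with an interval of -0.66 to 0.38.

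Lgals3bp, a secreted glycoprotein that binds galectin-3, had the highest positive difference of the 38 between PRP and diabetic ulcers. It had 12.4, 22.4 and 25.7 FPKM in PRP, 4.24, 9.85 and 5.59 FPKM in diabetic and 36.9, 12.5 and 12.5 FPKM in non-diabetic ulcers. The diabetic values were below all values of both other groups. PRP minus diabetic was 1.49, with an interval of 0.44 to 2.55 and an unadjusted p of 0.0111, and it did not pass after adjustment (limma adjusted p = 0.713). Besides Lgals3bp, Oasl2 alone had all PRP values above all diabetic values, so 2 of 38 members, or 5.26%, were apart in that direction, where 5.79% of all features were. No member was apart in the other direction, where 5.55% of features were, which makes 11.3% of features in either direction. Reads of Lgals3bp are uncertain, because its span overlaps Cant1.

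Of 12 interferon ligand genes sought, 8 were found by name, and none reached 0.5 FPKM in 3 libraries. Ifnk, the keratinocyte interferon, had 0, 0.109 and 0.0753 FPKM in PRP, 0, 0.0472 and 0 FPKM in diabetic and 0.492, 0 and 4.01 FPKM in non-diabetic ulcers. Ifng, the type II interferon of T and NK cells, was listed at 0.999 FPKM in diabetic library 1 and at or near 0 elsewhere. An entry of 0 in FPKM gives no upper limit, because the depth behind it is unknown.

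Of 9 pathway genes tested, namely receptor chains, kinases and Stat3, 7 were called, all lower in diabetic than in non-diabetic ulcers. Of all features, 8.95% were called, 7.16% as lower. The median difference of the 9 was -1.02. Ifnar1, the signalling chain of the type I receptor, had 19.0, 21.1 and 24.1 FPKM in PRP, 22.8, 11.8 and 13.1 FPKM in diabetic and 41.6, 27.9 and 44.3 FPKM in non-diabetic ulcers. Jak2, a kinase of the type II receptor, had 19.7, 32.1 and 34.3 FPKM in PRP, 23.2, 16.1 and 17.8 FPKM in diabetic and 69.8, 36.1 and 102 FPKM in non-diabetic ulcers. The non-diabetic values were above all others for both, with differences of -1.23 for Ifnar1 (limma adjusted p = 0.0370) and -1.70 for Jak2 (limma adjusted p = 0.0370). Jak1, the kinase shared by both receptors, and Stat3 were called as well, by -1.02 and -0.74. None of the 9 was called without PRP library 1 or 2, diabetic library 2 or 3, or non-diabetic library 1 or 3. Without PRP library 3, 2 were called, where 2.65% of all features were.

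Upstream of the ligands, 6 of 16 sensors and adaptors were called, all lower in diabetic ulcers, against 7.16% of all features called lower and 8.95% in either direction. They included Unc93b1, which carries endosomal Toll-like receptors, with a difference of -1.77, and their adaptor Myd88, with -1.42. The factors Irf5 and Irf8, known from myeloid cells, had differences of -1.23 and -1.57. Of 11 negative regulators, 9 had a negative difference and 2 a positive one. The 2 called were both lower in diabetic ulcers: Socs3, an inhibitor of JAK kinases, at -3.88, and the phosphatase Ptpn6 at -0.76. Socs3 had 7.62, 27.6 and 9.42 FPKM in PRP, 9.09, 3.18 and 2.78 FPKM in diabetic and 81.0, 28.8 and 209.6 FPKM in non-diabetic ulcers. In both lists no gene was called without PRP library 1 or 2, diabetic library 2 or 3, or non-diabetic library 1 or 3. Without PRP library 3, 1 gene of each list was called, where 2.65% of all features were.

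Of 43 other interferon-induced genes, 12 were called lower and 1 was called higher in diabetic ulcers. Of all features, 7.16% were called lower, 1.79% higher and 8.95% either. The median difference of the 43 was -0.85, with 39 negative and 4 positive. Ifitm3, which stops virus entry at endosomes, was lower by a difference of -1.20, Ifi30, a lysosomal thiol reductase, by -1.25, and Slfn2 by -1.53. Of 7 interferon-inducible chemokines, all had a negative difference and 4 were called lower. These were the monocyte attractants Ccl2 at -3.45, Ccl7 at -3.13 and Ccl12 at -2.30 and the T cell attractant Cxcl9 at -1.07. Of 14 class I antigen presentation genes, all had a negative difference and 3 were called lower. The 3 called were the immunoproteasome subunit Psmb8 at -1.20, the peptide transporter Tap2 at -0.95 and RT1-N3 at -0.56. Without diabetic library 1, 23 of the other induced genes and 7 of the class I genes were called. The share of all features called also rose in that fit, from 8.95% to 16.8%. No chemokine, class I gene or other induced gene was called without PRP library 1, PRP library 2, diabetic library 2, diabetic library 3, non-diabetic library 1 or non-diabetic library 3. Without PRP library 3, the counts were 1 chemokine, 0 class I genes and 2 other induced genes, where 2.65% of all features were called. PRP ulcers had no called gene in any of these lists against either other group.

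Markers of several cell types moved with these lists. The summed level of 15 of the 16 listed macrophage genes was 1051 to 2010 FPKM in PRP, 346 to 1511 FPKM in diabetic and 2250 to 3101 FPKM in non-diabetic ulcers. All 15 differences between diabetic and non-diabetic ulcers were negative, with a median of -1.73. Marco was at or near 0 in every library. Diabetic library 2 had the lowest macrophage sum as well as the lowest interferon mean. Diabetic library 3, with the highest interferon mean of its group, had a macrophage sum of 642 FPKM, below the 1511 FPKM of diabetic library 1. Differences between diabetic and non-diabetic ulcers were also negative in all 12 fibroblast markers that were tested (median -1.61), all 11 endothelial markers (median -1.16), all 11 neutrophil markers (median -1.90) and all 9 B and plasma cell markers (median -0.91). They were negative in 10 of 11 dendritic and Langerhans cell markers (median -0.85) and 10 of 11 T and NK cell markers (median -0.57). So were 7 of 10 plasmacytoid dendritic cell markers (median -0.61). Of these 7, Bst2 is itself a member of the interferon set, and Irf8 and Tlr9 are among the sensors and adaptors above. Differences were positive in all 9 skeletal muscle, all 11 keratinocyte and all 15 hair follicle markers, with medians of 2.47, 2.17 and 3.55. The part of any of these cell types in the interferon gene differences was not tested.

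**Figure D5:**
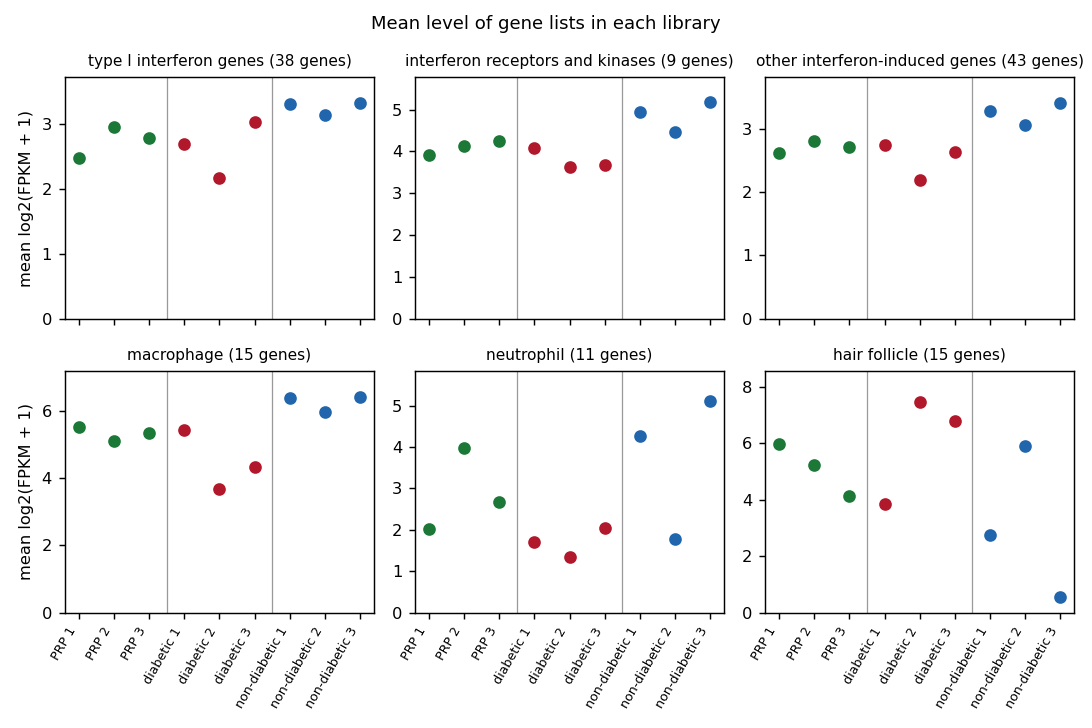
Mean log2(FPKM + 1) of each gene list in the 9 libraries, by group, for the interferon response genes, 2 pathway lists and 3 marker lists. The interferon response genes averaged 2.48 to 2.95 in PRP, 2.17 to 3.03 in diabetic and 3.15 to 3.33 in non-diabetic libraries, and the macrophage markers were lowest in diabetic library 2.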

How the data were processed

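RNA from 9 ulcer skin samples, 3 per group, was sequenced as directional libraries. The authors deposited FPKM per gene; cutadapt, FastQC, HISAT2 and StringTie are named in the submitters' processing notes, with the build GRCm39, which does not match the rat identifiers of the table. The deposited count table of 249 long non-coding RNA genes was used only to read relative depth, from genes with at least 20 counts.

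Rows of one gene name were summed, features at 0.5 FPKM in at least 3 libraries were kept, and log2(FPKM + 1) was fitted with limma 3.58.1 in R 4.3.3 (trended variance, one fit to 3 groups, Benjamini-Hochberg adjustment), tested on simulated data. Rows without a name made up 23.4% of the table and stayed in as single features. The members and lists were chosen with earlier results of these data known. Values in all libraries are given for called members and the 2 members of each role with the highest mean; up to 4 called genes of a pathway list, or else the 2 with the highest mean, are named. Ifnar1, Jak2, Socs3 and Ifnk were picked from these to be given by library after their values were seen, as were the further genes that the text says were so chosen. Alternatives changed the pseudocount, filter, scaling, weights, block and libraries; the counts for pathway lists under them were added after seeing the data. FPKM gives no depth per gene, so no counting interval is given.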

Additional observations from a re-analysis of the deposited data

How the results depend on the processing

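The 5 called genes Stat2, Irf1, Oasl2, Parp9 and Parp14 stayed lower in diabetic than in non-diabetic ulcers under all 19 alternatives, but the calls did not hold under all. Against the 5 of the analysis as reported, the count of called members was 0 with no filter on low values, 1 with size factors, 8 with FPKM scaled to one total per library, 0 with only the 6 libraries compared in the fit, 15 with sample weights, 3 with the replicate block and 0 with non-diabetic libraries 1 and 3 left out. Over the fits that leave out one library each, it ranged from 0 to 11. A pseudocount of 0.1, a filter of 1 FPKM and the highest feature of each name gave 5, 6 and 5. Among all features, the same comparison called 1396 as reported (8.95%), 8 with no filter (0.0282%) and 885 with size factors (5.68%). With scaling to one total it called 1508 (9.2%), and with the 6 libraries alone 0. With sample weights it called 5607 (35.9%), and with the replicate block 1259 (8.07%). Without one library it called 0 to 3475, the most being 22.4%. Same-numbered samples did not deviate together in most pairs (r from -0.41 to 0.35, 3 of 9 above 0.1). The numbers were therefore not taken as pairs. With the replicate block, Oasl2, Parp14 and 1 member outside the 5 were called. Irf1 (limma adjusted p = 0.0510), Parp9 (0.0598) and Stat2 (0.0701) were not. No member was called between PRP and diabetic ulcers in any alternative. Between PRP and non-diabetic ulcers, 22 members were called with sample weights, where 41.5% of all features were called. The weights were 7.5 for non-diabetic library 1 and 0.396 to 2.96 for the others. Leaving out one library each gave 0 to 2 members, the 2 without non-diabetic library 2, where 4.55% of all features were called. In the same comparison, scaling to one total moved the median of all features to -0.28. Leaving out a library or fitting 6 libraries leaves fewer samples to estimate the spread; why the other settings moved the count was not tested.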

Other observations

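Of the other interferon-induced genes listed, 1 was called higher in diabetic than in non-diabetic ulcers. It is named here after its values were seen. Oas1f, a copy of the oligoadenylate synthetase gene, had 6.50, 3.85 and 2.12 FPKM in PRP, 2.97, 4.23 and 5.84 FPKM in diabetic and 0.627, 1.69 and 0 FPKM in non-diabetic ulcers. All PRP and diabetic values were above all non-diabetic values, and the log2 difference between diabetic and non-diabetic ulcers was 1.67 (SE 0.42, limma adjusted p = 0.0468). No gene of its list was called higher without PRP library 1, 2 or 3, diabetic library 2 or 3, or non-diabetic library 1 or 3 or both of these, with a pseudocount of 0.1, no filter, size factors or the replicate block, or with only the 6 libraries compared in the fit. Its neighbour Oas1a had a difference of -0.63 that was not called. Reads may be split among the close copies of this locus, so the separate levels are uncertain. The summed levels of 11 keratinocyte and 15 hair follicle markers were also lowest in non-diabetic library 3, where Oas1f was listed at 0. The highest keratinocyte sum, 11180 FPKM, was in PRP library 2, whereas Oas1f was highest in PRP library 1, with a sum of 5467 FPKM. The part of these cell types in the Oas1f difference was not tested.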
